A study of Rattus norvegicus with 32 samples.

Results

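The respiratory chain and the ATP synthase of rat muscle were followed through 92 genes, of 14557 genes that the arrays measured with a feature of their own. The 92 were chosen by name: a feature entered if it was annotated to exactly 1 symbol and that symbol began with Nduf, Uqcr, Cox4 to Cox8 or Atp5, or was Sdha, Sdhb, Sdhc or Sdhd. Where a gene had several such features, as 3 of the 92 did, the feature with the highest mean over the 32 arrays stood for it. By their names 36 genes belong to complex I, 8 to the complex I assembly factors, 4 to complex II, 7 to complex III, 17 to complex IV and 20 to the ATP synthase. Of the 92, 75 carry the names of subunits or factors, and 17 carry names of gene copies or pseudogenes. A test was made for the 85 genes that were not among the dimmest 25% of all genes, which lay below a log2 intensity of 3.35. These 85 comprised 73 subunits or factors and 12 copies. The other 7 were Cox6b1, Cox7b2, Cox6c-ps1, Ndufb4l1, Ndufaf7-ps1, Atp5mc1l2 and Atp5mgl4. No feature named for a subunit encoded in mitochondrial DNA was analysed here.

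RNA was measured in the red part of the tibialis anterior, a muscle of the shin, in 32 male Zucker rats aged 18 weeks, with 1 array per rat and 8 rats per group. Lean Zucker rats and obese Zucker rats ate the AIN-93G control diet without restriction, and these were the lean controls and the obese controls. Other obese rats received the diet with 10% flaxseed oil, called ALA after alpha-linolenic acid, or with 10% safflower oil, called LA after linoleic acid. Both oil groups were pair-fed to the calories of the obese controls for 12 weeks. All rats had arrived at 5 weeks of age. Zucker rats are a genetic model of obesity, in which genotype and body weight differ together between lean and obese rats. The labels name no allele for either, and no lean group received an oil. Replicates are separate rats.

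Complexes I and II pass electrons from NADH and succinate to ubiquinone, complex III passes them on to cytochrome c, and complex IV hands them to oxygen. Complexes I, III and IV pump protons, and the ATP synthase lets the protons flow back and makes ATP. Red muscle is rich in mitochondria, and its fibres draw most of their ATP from this route. Most subunits are encoded in the nucleus, and the factors NRF1, GABPA, ERR and YY1 are known to bind the promoters of many of them.

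The promoters of the genes were searched for 1 motif of each of these factors. The RefSeq promoter, 250 bases before to 50 bases after the gene start on build GRCr8, was found for 69 of the 75 subunits and factors. The NRF1 motif was present on either strand in 15 of them (21.7%), against 6.08% of 18999 coding promoters of the same length. AAGATGGC, for YY1, was present in 16 (23.2%) against 3.92%. CCGGAAGT, for GABPA, was present in 6 (8.70%) against 4.99%, and TCAAGGTCA, for ERR, in 2 (2.90%) against 0.353%. At least 1 of the 4 motifs was found in 33 of the 69 (47.8%) and in 13.9% of coding promoters. The motif searches for different factors were not prevented from overlapping. Between obese and lean controls the median log2 difference was -0.16 in tested genes with the NRF1 motif and -0.13 in those without. It was -0.15 and -0.14 for YY1, and -0.17 and -0.14 for GABPA. For ERR it was -0.24 in 2 genes with the motif and -0.14 in those without. The part of these factors in the differences was not tested.

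The promoters printed here belong to the subunit with the smallest p between obese and lean controls in its enzyme, where that promoter held a match. Cox5b lies on the plus strand at chr9:46417587-46417886, Atp5mc3 on the minus strand at chr3:79220615-79220914 and Uqcrh on the minus strand at chr5:134790833-134791132. Each is written on the strand of its gene with the match in capitals.
Cox5b: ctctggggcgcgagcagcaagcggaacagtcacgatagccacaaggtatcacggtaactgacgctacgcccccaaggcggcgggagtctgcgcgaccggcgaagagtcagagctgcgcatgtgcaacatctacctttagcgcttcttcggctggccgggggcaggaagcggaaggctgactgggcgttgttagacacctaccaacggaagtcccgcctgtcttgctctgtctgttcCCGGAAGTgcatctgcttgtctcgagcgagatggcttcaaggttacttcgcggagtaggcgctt
Atp5mc3: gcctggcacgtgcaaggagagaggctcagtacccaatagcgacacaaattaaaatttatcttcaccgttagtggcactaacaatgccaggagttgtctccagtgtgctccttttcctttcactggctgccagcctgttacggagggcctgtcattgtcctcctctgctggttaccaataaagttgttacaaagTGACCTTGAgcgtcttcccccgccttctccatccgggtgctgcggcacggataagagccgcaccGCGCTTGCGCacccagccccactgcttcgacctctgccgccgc
Uqcrh: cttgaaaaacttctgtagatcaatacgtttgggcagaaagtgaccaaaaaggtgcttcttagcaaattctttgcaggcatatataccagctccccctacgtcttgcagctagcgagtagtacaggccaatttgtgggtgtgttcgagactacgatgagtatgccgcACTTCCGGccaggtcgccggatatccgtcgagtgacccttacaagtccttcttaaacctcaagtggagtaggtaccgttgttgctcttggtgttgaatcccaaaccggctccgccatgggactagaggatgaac
In Cox5b the capitals mark the GABPA motif, which begins 14 bases before the start. In Atp5mc3 they mark the ERR motif on the other strand, 57 bases before the start, and the NRF1 motif, 7 bases after it. In Uqcrh they mark the GABPA motif on the other strand, 84 bases before the start. The promoters of Ndufc2 and Sdhb, chosen by the same rule for complexes I and II, held none of these letters.

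Array medians lay between 3.83 and 3.99 on the log2 scale. RMA makes the distributions of the arrays alike, so these medians cannot show whether the arrays were alike in signal or quality. Correlations between arrays ran from 0.966 to 0.992. No array was a copy of another. The 6 skeletal muscle markers tested were high in every rat, with means over the list from 12.06 to 12.20. Several arrays stood apart in markers of other states and cell types. Obese controls 4 and 7 had means of 7.81 and 8.03 over 10 genes of muscle regeneration and denervation, against 6.05 to 6.14 in the other obese controls, and lean control 2 stood at 7.62. Obese control 5 had a mean of 9.42 over 4 hepatocyte genes, and every other rat was at or below 5.02. LA rat 7 was high in fibroblast genes (8.55) and adipocyte genes (5.80). In whole muscle, fewer cells of a type and less RNA per cell cannot be told apart.

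A few rats of the obese groups had low respiratory chain values, and most obese controls lay within the lean range. Averaged over the 73 tested subunits and factors, lean controls had log2 intensities of 9.07 to 9.25 with a median of 9.15. Obese controls ranged from 8.58 to 9.23 with a median of 9.12. The low values were those of rat 7 at 8.58, rat 4 at 8.77 and rat 5 at 8.98, and the other 5 obese controls lay between 9.10 and 9.23, within the range of the lean controls. The SD between rats was 0.23 in obese controls and 0.058 in lean controls. ALA rats ranged from 8.97 (rat 3) to 9.29 (rat 1) with a median of 9.14, and LA rats from 8.91 (rat 8) to 9.28 (rat 1) with a median of 9.11. The 4 groups overlapped, and all obese groups were wider than the lean controls.

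**Figure D1:**
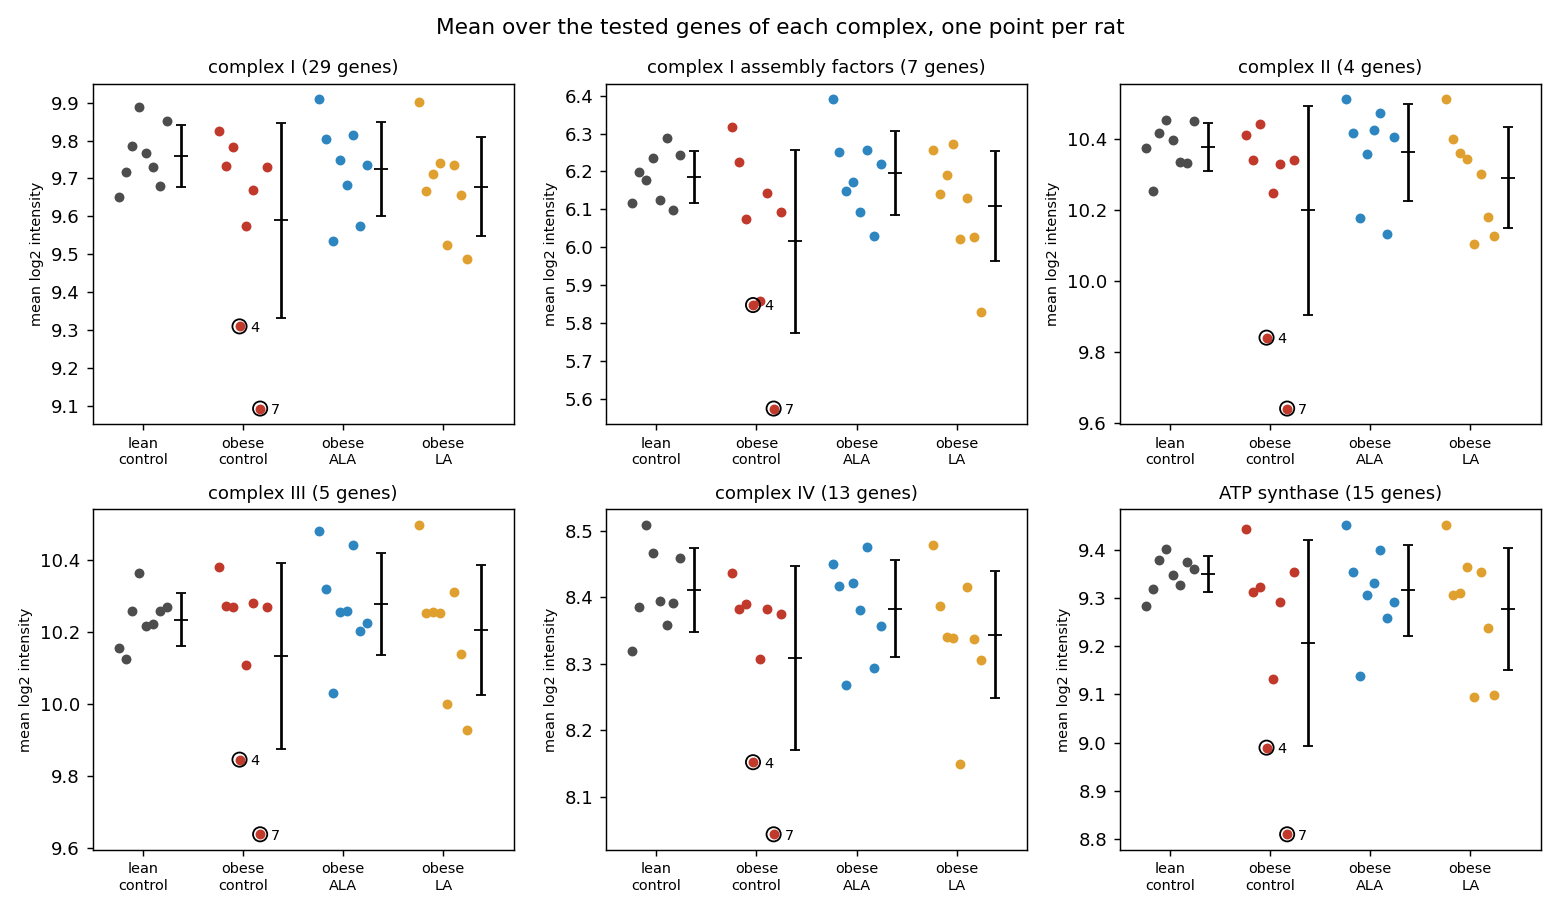
Each panel plots the mean log2 intensity over the tested subunits or factors of 1 complex on the vertical axis, with 1 point per rat in the 4 groups and the group mean ± SD (n = 8) in black beside the points. Obese controls 4 and 7 are circled, and in complexes I, II and III and in the ATP synthase they lie below every other rat.

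The low means were spread over many genes. In obese control 7, 64 of the 73 subunits and factors lay below every lean control (87.7%), against 22.9% of all genes tested. In obese control 4 this held for 62 of 73 (84.9%), against 19.3% of all genes, and in obese control 5 for 35 (47.9%), against 25.8%. In the other obese controls it held for 3 to 14 genes (4.11% to 19.2%), against 11.7% to 18.2% of all genes. Obese control 7 held the lowest value of its group for 60 of the 73. Low rats were found in the oil groups too: the count was 45 in LA rat 8 (61.6%, all genes 22.3%), 39 in LA rat 5 (53.4%, all genes 19.8%), 36 in ALA rat 3 (49.3%, all genes 14.7%) and 29 in ALA rat 7 (39.7%, all genes 19.0%). At the other end, 33 genes of ALA rat 1 (45.2%), 31 of LA rat 1 (42.5%) and 22 of obese control 1 (30.1%) lay above every lean control, against 13.7%, 17.6% and 14.0% of all genes.

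**Figure D2:**
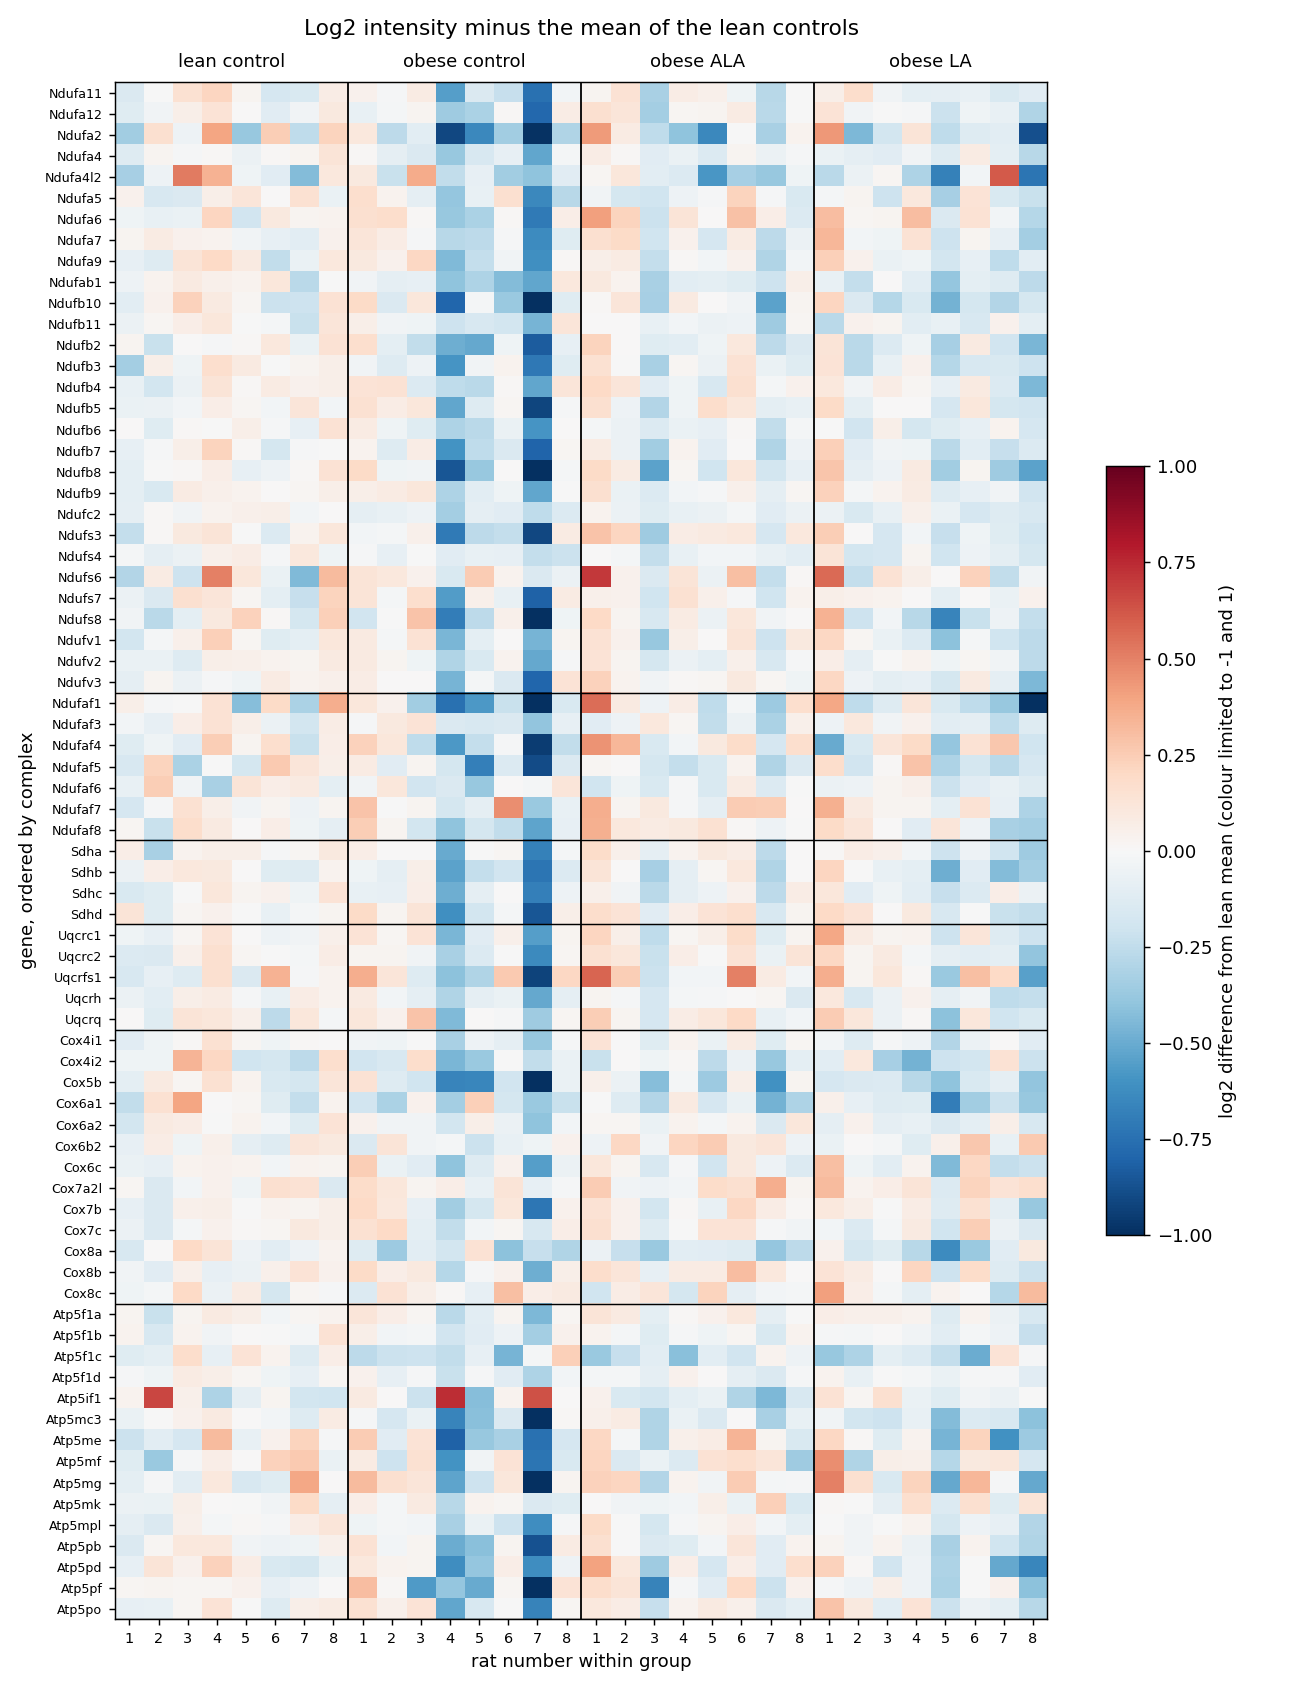
Colours give the log2 intensity of each of the 73 tested subunits and factors (vertical axis, ordered by complex) in each of the 32 rats (horizontal axis, by group), minus the mean of the 8 lean controls, with blue for lower and red for higher. Obese controls 4 and 7 form blue columns through all complexes, in which Atp5if1 is red, as it is in lean control 2.

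Every complex took part in the low values of these rats. In obese control 7 the median difference from the lean mean was -0.61 over the 73 genes, and it was -0.64 in complex I, -0.53 in its assembly factors, -0.71 in complex II, -0.55 in complex III, -0.37 in complex IV and -0.62 in the ATP synthase. In obese control 4 it was -0.38 over all, and -0.40, -0.17, -0.52, -0.41, -0.28 and -0.38 in the same order. Of the enzymes, complex IV had the smallest median in both rats, but this depends on the make-up of its list. It includes the dim features Cox8c (0.068 in rat 7, 0.012 in rat 4) and Cox6b2 (-0.043 and -0.022). It also includes Cox7a2l (-0.080 and 0.067), which is a factor that joins complexes. Ndufa4, a complex IV subunit, is counted in complex I by its name (-0.52 and -0.38). The largest single differences in rat 7 were those of Ndufb10 (-1.19), Cox5b (-1.17), Atp5mg (-1.12), Ndufaf1 (-1.11) and Atp5mc3 (-1.08).

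Obese and lean controls ate the same diet, both without restriction. Genotype and body weight cannot be told apart in their difference. Over all genes, limma called 1.76% of 10917 genes at an adjusted p below 0.05, which was 0.431% higher and 1.33% lower in obese controls. Among the 73 subunits and factors it called none, and the smallest adjusted p was 0.114. At an unadjusted p below 0.05 there were 20 of the 73, all lower, where 14.8% of all genes reached that level. With array weights and with a robust variance prior the count of subunits called was 0 as well. By direction, 68 of the 73 were lower in obese controls, against 49.4% of all genes. The median log2 difference was -0.14 over the 73, -0.14 over all 75 measured, and 0.0019 over all genes tested.

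By complex, the medians ran from -0.17 to -0.10, and differences between complexes were not tested. In complex I 28 of 29 tested genes were lower with a median of -0.15, and among its assembly factors 6 of 7 were lower with a median of -0.17. All 4 genes of complex II (-0.17) and all 5 of complex III (-0.10) were lower. In complex IV 11 of 13 (-0.11) and in the ATP synthase 14 of 15 (-0.16) were lower. Each of these medians was smaller in size than the SD between obese controls of the same complex, which ran from 0.14 in complex IV to 0.29 in complex II. That SD is the spread of single rats, with the low obese controls 4 and 7 among them. It is not the uncertainty of a group difference, so this is no test.

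Without obese controls 4 and 7 most of this difference was gone. Then 50 of the 73 genes were lower, against 52.9% of all genes, and the median was -0.035, against -0.0085 over all genes. The median was -0.048 in complex I, -0.068 in its assembly factors, -0.012 in complex II, 0.044 in complex III, -0.012 in complex IV and -0.033 in the ATP synthase. At an unadjusted p below 0.05 there were 2 of 73, where 12.4% of all genes reached it, and the smallest adjusted p was 0.382 (Cox8a), while 1.50% of all genes were called. Leaving out rat 7 alone gave a median of -0.075, and leaving out rat 4 alone gave -0.10. These 2 rats also had raised regeneration and denervation genes, and the part of that state in the low subunit values was not tested. Lean control 2, with a regeneration mean of 7.62, had a subunit mean of 9.12, and is itself one of the rats that set the lean range. Among the lean controls it held the lowest value for 22 of the 73 genes, the most of any, and the highest for 3.

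**Figure D3:**
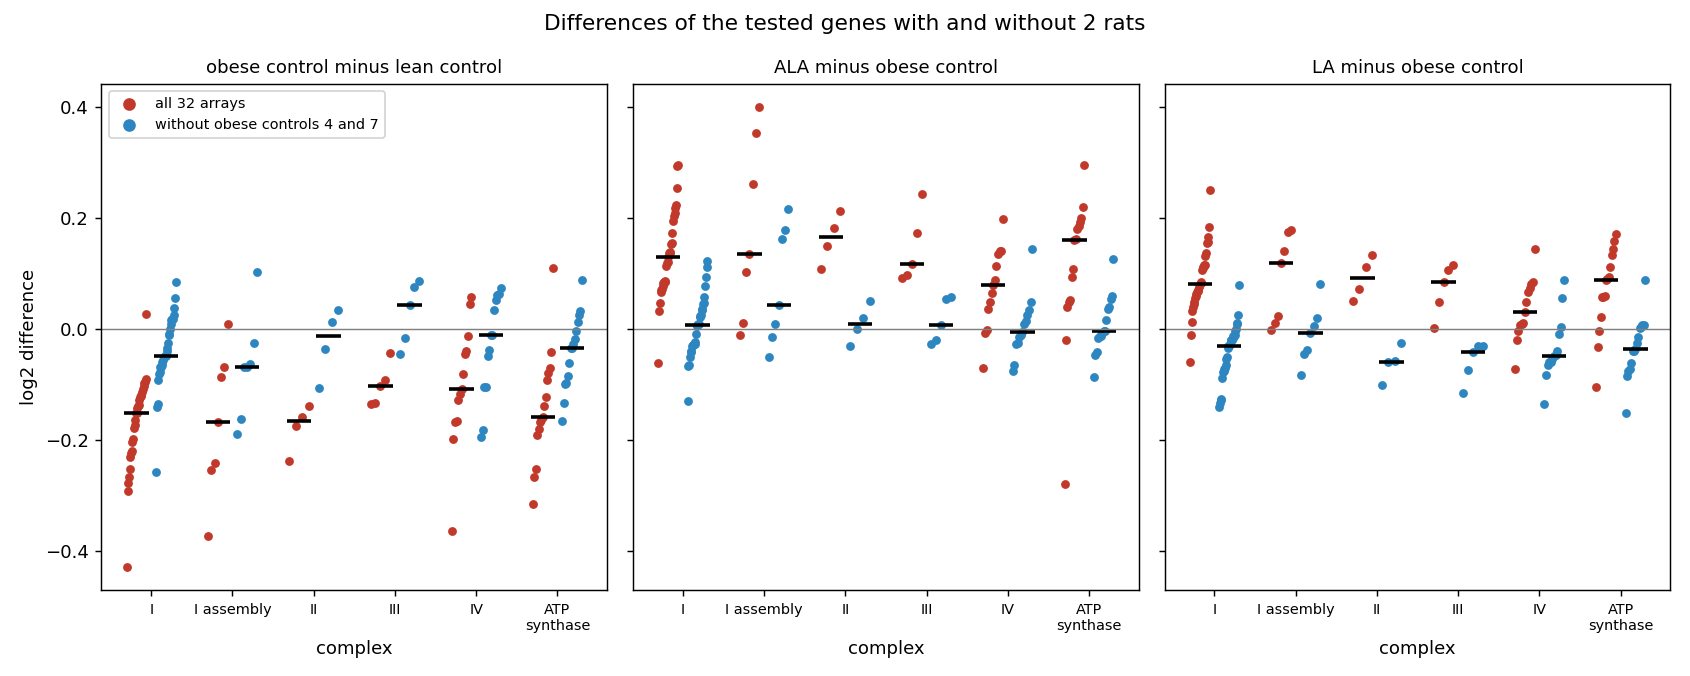
Points are the log2 differences of the 73 tested subunits and factors (vertical axis) by complex (horizontal axis) for 3 comparisons, in red from all 32 arrays and in blue without obese controls 4 and 7, and black bars are medians. The red points lie mostly below 0 for obese minus lean controls and above 0 for both oils minus obese controls, and the blue medians lie near 0 in all 3.

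In complex I, the entry point for NADH, the smallest adjusted p belonged to Ndufc2, an accessory subunit of the membrane arm. Its lowest, median and highest values were 11.69, 11.79 and 11.84 in lean controls and 11.44, 11.68 and 11.73 in obese controls. They were 11.66, 11.72 and 11.81 in ALA rats and 11.61, 11.68 and 11.83 in LA rats. The obese controls lay mostly below the lean controls, with overlap at the upper end, and rats 4 and 7 were lowest. The log2 difference was -0.14 (SE 0.047, adjusted p = 0.114), and -0.093 without rats 4 and 7 (adjusted p = 0.397). Ndufa2, an accessory subunit of the matrix arm, had the largest difference of the complex. It ran through 6.47, 6.90 and 7.24 in lean controls, 5.86, 6.52 and 6.96 in obese controls, 6.20, 6.72 and 7.27 in ALA rats and 5.97, 6.69 and 7.28 in LA rats. Its means were 6.85 ± 0.30 (SD, n = 8) in lean and 6.42 ± 0.38 in obese controls, a difference of -0.43 (SE 0.17, adjusted p = 0.189). The feature varied widely in every group, and without rats 4 and 7 the difference was -0.26 (adjusted p = 0.546).

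Ndufb10, a membrane-arm subunit, was at 8.69 ± 0.16 in lean and 8.40 ± 0.48 in obese controls. Its lowest, median and highest values were 8.47, 8.72 and 8.92, and in obese controls 7.50, 8.56 and 8.88. ALA rats had 8.15, 8.70 and 8.81 and LA rats 8.22, 8.51 and 8.90. The obese median lay inside the lean range and rat 7 far below it. The difference was -0.29 (SE 0.14, adjusted p = 0.315), and -0.059 without both rats. The core subunits, some of which carry the flavin and the iron-sulfur clusters, were represented by Ndufs3, Ndufs7, Ndufs8, Ndufv1 and Ndufv2. All 5 were lower in obese controls, between -0.25 and -0.096, and none was called. Ndufb11b, a copy by its name, had the smallest difference among tested genes, 0.0033 (SE 0.080, adjusted p = 0.993). It ran through 3.62, 3.91 and 4.08 in lean controls, 3.65, 3.90 and 4.14 in obese controls, 3.73, 3.85 and 4.04 in ALA rats and 3.62, 3.88 and 4.31 in LA rats. Those values are close to the dim end of the array.

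Ndufa4 carries a complex I name but is a subunit of complex IV, and Ndufa4l2 is its paralog, known to be induced by hypoxia. Ndufa4 had lowest, median and highest values of 10.83, 10.97 and 11.09 in lean and 10.44, 10.84 and 10.97 in obese controls. ALA rats had 10.82, 10.92 and 11.03 and LA rats 10.68, 10.87 and 11.04. The difference between obese and lean was -0.17 (SE 0.063, adjusted p = 0.167), and -0.080 without rats 4 and 7. Ndufa4l2 differed by -0.12 (SE 0.15, adjusted p = 0.758). It ran through 4.44, 4.83 and 5.39 in lean controls, 4.47, 4.70 and 5.24 in obese controls, 4.29, 4.75 and 4.98 in ALA rats and 4.14, 4.71 and 5.49 in LA rats. Its 4 groups overlapped, and LA rats 8 and 7 were the lowest and the highest of all rats.

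Complex I is built with the help of the Ndufaf factors. Ndufaf1, which acts on the early membrane arm, was at 6.34 ± 0.26 (SD, n = 8) in lean and 5.97 ± 0.41 in obese controls. Lowest, median and highest were 5.91, 6.37 and 6.70 in lean controls, 5.23, 6.06 and 6.46 in obese controls, 5.98, 6.37 and 6.90 in ALA rats and 5.12, 6.14 and 6.73 in LA rats. Obese control 7 and LA rat 8 were lowest, and the groups overlapped. The difference was -0.37 (SE 0.17, adjusted p = 0.293), and -0.19 without rats 4 and 7. Ndufaf5, which modifies the core subunit Ndufs7, differed by -0.26 (SE 0.11, adjusted p = 0.279). Its values were 4.73, 5.07 and 5.30 in lean controls, 4.15, 4.90 and 5.13 in obese controls, 4.75, 4.89 and 5.08 in ALA rats and 4.74, 4.87 and 5.33 in LA rats. Ndufaf7, another of the factors, differed least of the tested ones, by 0.0090 (SE 0.092, adjusted p = 0.978). It ran through 5.79, 5.97 and 6.12 in lean controls, 5.59, 5.92 and 6.43 in obese controls, 5.88, 6.02 and 6.33 in ALA rats and 5.66, 5.99 and 6.32 in LA rats.

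Complex II, succinate dehydrogenase, also works in the tricarboxylic acid cycle. Sdhb, its iron-sulfur subunit, had lowest, median and highest values of 10.31, 10.45 and 10.54 in lean and 9.71, 10.27 and 10.49 in obese controls, 10.11, 10.44 and 10.57 in ALA rats and 9.95, 10.33 and 10.65 in LA rats. Obese controls 4 and 7 were lowest, and LA rat 5 was the lowest outside that group. The difference was -0.24 (SE 0.099, adjusted p = 0.237), and -0.11 without these 2 rats (adjusted p = 0.673). Sdhc, a membrane anchor, was at 10.49, 10.65 and 10.79 in lean controls, 9.96, 10.57 and 10.71 in obese controls, 10.38, 10.60 and 10.72 in ALA rats and 10.41, 10.57 and 10.76 in LA rats. It differed by -0.17 (SE 0.083, adjusted p = 0.322), and by -0.037 without both. Sdha, the flavoprotein that oxidises succinate, had the smallest difference of the complex, -0.14 (SE 0.092, adjusted p = 0.497). It ran through 10.14, 10.51 and 10.56 in lean controls, where rat 2 was alone at the bottom, and 9.79, 10.46 and 10.53 in obese controls. ALA rats had 10.21, 10.51 and 10.65 and LA rats 10.11, 10.42 and 10.54.

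In complex III, Uqcrh, the hinge protein that helps cytochrome c to bind, had values of 11.07, 11.19 and 11.26 in lean controls and 10.66, 11.09 and 11.27 in obese controls. ALA rats had 11.01, 11.16 and 11.21 and LA rats 10.92, 11.10 and 11.28. Obese control 1 was at the top of the lean range, and rats 4 and 7 were farthest below it. The difference of -0.14 (SE 0.066, adjusted p = 0.337) was -0.045 without rats 4 and 7. Uqcrc2, a core protein on the matrix side, differed by -0.13 (SE 0.085, adjusted p = 0.473) and by -0.017 without them. It ran through 10.61, 10.76 and 10.91 in lean controls, 10.12, 10.73 and 10.78 in obese controls, 10.53, 10.84 and 10.91 in ALA rats and 10.36, 10.70 and 10.96 in LA rats. Uqcrfs1, the Rieske iron-sulfur protein, was wider, from 7.46 to 8.75 in obese controls. The pseudogene Uqcr10-ps1 had the smallest difference among tested genes, -0.017 (SE 0.090, adjusted p = 0.958), with 5.17, 5.40 and 5.60 in lean and 4.93, 5.47 and 5.73 in obese controls. ALA rats had 5.30, 5.55 and 5.70 and LA rats 5.28, 5.41 and 5.64.

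In complex IV, Cox5b, a zinc-binding subunit, had the largest difference. Its values were 10.03, 10.23 and 10.35 in lean controls and 9.03, 10.00 and 10.34 in obese controls, where rats 4, 5 and 7 were low and rat 1 was near the highest lean control. ALA rats had 9.59, 10.16 and 10.26 and LA rats 9.79, 10.04 and 10.11. The means were 10.20 ± 0.12 (SD, n = 8) and 9.83 ± 0.43, a difference of -0.37 (SE 0.13, adjusted p = 0.140). Without rats 4 and 7 it was -0.18 (adjusted p = 0.487). Cox7c differed least of the tested genes, by -0.012 (SE 0.065, adjusted p = 0.957). Its values were 8.29, 8.45 and 8.53 in lean controls, 8.18, 8.43 and 8.63 in obese controls, 8.31, 8.45 and 8.59 in ALA rats and 8.24, 8.39 and 8.68 in LA rats. Cox7a2l, a factor that joins complexes III and IV into supercomplexes, was 0.044 higher in obese controls (SE 0.067, adjusted p = 0.808).

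Several subunits of complex IV exist as tissue isoforms, and each was compared only with itself across groups, because levels of different probes cannot be ranked. Cox4i1, the common isoform, had 10.75, 10.86 and 11.01 in lean controls, 10.47, 10.81 and 10.85 in obese controls, 10.73, 10.87 and 11.00 in ALA rats and 10.56, 10.80 and 10.86 in LA rats. Its difference of -0.12 (SE 0.059, adjusted p = 0.355) was -0.039 without rats 4 and 7. Cox4i2, the isoform best known from lung, had 4.73, 4.94 and 5.33 in lean controls, 4.53, 4.81 and 5.16 in obese controls, 4.61, 4.91 and 5.00 in ALA rats and 4.52, 4.79 and 5.14 in LA rats, and differed by -0.17 (SE 0.095, adjusted p = 0.419). The muscle isoform Cox6a2 had 11.00, 11.20 and 11.32 in lean controls, 10.79, 11.15 and 11.24 in obese controls, 11.04, 11.20 and 11.30 in ALA rats and 11.03, 11.10 and 11.24 in LA rats. It differed by -0.081 (SE 0.059, adjusted p = 0.549) and by -0.011 without both rats. Its partner Cox6a1, common outside muscle, had 8.30, 8.55 and 8.93 in lean controls, 8.17, 8.33 and 8.78 in obese controls, 8.06, 8.39 and 8.63 in ALA rats and 7.85, 8.37 and 8.59 in LA rats, and differed by -0.17 (SE 0.10, adjusted p = 0.445). No isoform was called, and the members of each pair overlapped between groups.

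Of the 3 isoforms of subunit 8, Cox8b is that of heart and muscle. It had 10.89, 11.01 and 11.14 in lean controls, 10.52, 11.06 and 11.19 in obese controls, 10.92, 11.10 and 11.32 in ALA rats and 10.79, 11.05 and 11.22 in LA rats, a difference of -0.040 (SE 0.081, adjusted p = 0.858) between obese and lean. Cox8a, the isoform of most tissues, had 8.91, 9.05 and 9.27 in lean controls, 8.66, 8.86 and 9.21 in obese controls, 8.69, 8.89 and 9.01 in ALA rats and 8.44, 8.92 and 9.17 in LA rats. Unlike in Cox5b, neither rat 4 nor rat 7 was the lowest obese control, although at 8.88 and 8.84 both lay below every lean control. Rat 6 was lowest and rat 5 highest. The difference was -0.20 (SE 0.085, adjusted p = 0.252) with rats 4 and 7 and -0.20 (adjusted p = 0.382) without them. It stood lower than in lean controls in the ALA group as well (-0.21, SE 0.085, adjusted p = 0.379) and in the LA group (-0.19, SE 0.085, adjusted p = 0.302), and these comparisons share the lean controls. Cox8c, known from testis, had 3.28, 3.44 and 3.65 in lean controls, 3.32, 3.52 and 3.75 in obese controls, 3.25, 3.43 and 3.68 in ALA rats and 3.17, 3.47 and 3.86 in LA rats, near the dim end, and differed by 0.058 (SE 0.080, adjusted p = 0.782).

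Cox7b had 10.91, 11.08 and 11.11 in lean controls, 10.33, 11.03 and 11.25 in obese controls, 10.86, 11.08 and 11.26 in ALA rats and 10.67, 11.08 and 11.21 in LA rats. Its difference of -0.11 (SE 0.093, adjusted p = 0.623) turned to 0.034 without rats 4 and 7 (adjusted p = 0.902). The testis isoform Cox6b2 had 3.47, 3.60 and 3.72 in lean controls, 3.38, 3.56 and 3.73 in obese controls, 3.54, 3.71 and 3.85 in ALA rats and 3.48, 3.59 and 3.87 in LA rats, and differed by -0.045 (SE 0.065, adjusted p = 0.795). The features of Cox6b1 and Cox7b2 were too dim for the test. Cox6b1 had 2.10, 2.37 and 2.62 in lean controls, 2.16, 2.34 and 2.41 in obese controls, 2.20, 2.31 and 2.39 in ALA rats and 2.06, 2.26 and 2.55 in LA rats. Cox7b2 had 2.51, 2.65 and 2.79 in lean controls, 2.43, 2.54 and 2.75 in obese controls, 2.58, 2.67 and 2.86 in ALA rats and 2.41, 2.65 and 2.76 in LA rats. Cox6b1 is a subunit of complex IV in most tissues, so its low value says little beyond this feature.

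In the ATP synthase, Atp5mc3 encodes the c subunit of the rotating ring. Its values were 11.05, 11.18 and 11.27 in lean controls and 10.10, 11.02 and 11.19 in obese controls, with rats 7, 4 and 5 farthest below the lean controls and rats 2 and 6 just below them. ALA rats had 10.86, 11.11 and 11.27 and LA rats 10.75, 11.01 and 11.14. The means of 11.18 ± 0.074 (SD, n = 8) and 10.86 ± 0.38 differed by -0.32 (SE 0.11, adjusted p = 0.130), and by -0.13 without rats 4 and 7 (adjusted p = 0.484). Atp5f1a and Atp5f1b, the alpha and beta subunits of the catalytic head, differed by -0.071 (SE 0.066) and -0.080 (SE 0.055). The smallest difference among the tested genes of the enzyme was that of Atp5mc2l1, a copy by its name, at -0.033 (SE 0.11, adjusted p = 0.919). It had 6.65, 6.97 and 7.42 in lean controls, 6.75, 7.02 and 7.28 in obese controls, 6.76, 7.08 and 7.38 in ALA rats and 6.77, 7.08 and 7.30 in LA rats.

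Atp5if1, the inhibitor that stops the ATP synthase from running in reverse and splitting ATP, was high in obese controls 4 and 7. It was singled out after its values were seen. There it stood at 6.63 and 6.53, and the other 6 obese controls lay between 5.46 and 5.98. Lean control 2 stood at 6.55, and the other lean controls between 5.58 and 5.94. These 3 rats had the highest regeneration and denervation means of all, at 7.81, 8.03 and 7.62. The subunit means of obese controls 4 and 7 lay below the lean range. Lean control 2 is itself one of the rats that set that range, so it cannot be compared with it in this way. ALA rats had 5.44, 5.73 and 5.93 and LA rats 5.77, 5.87 and 6.05. The group difference of obese from lean controls was 0.11 (SE 0.13, adjusted p = 0.729), and -0.084 without rats 4 and 7. The ALA group was lower than obese controls by a log2 difference of -0.28 (SE 0.13, adjusted p = 0.560), and of -0.086 without them.

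**Figure D4:**
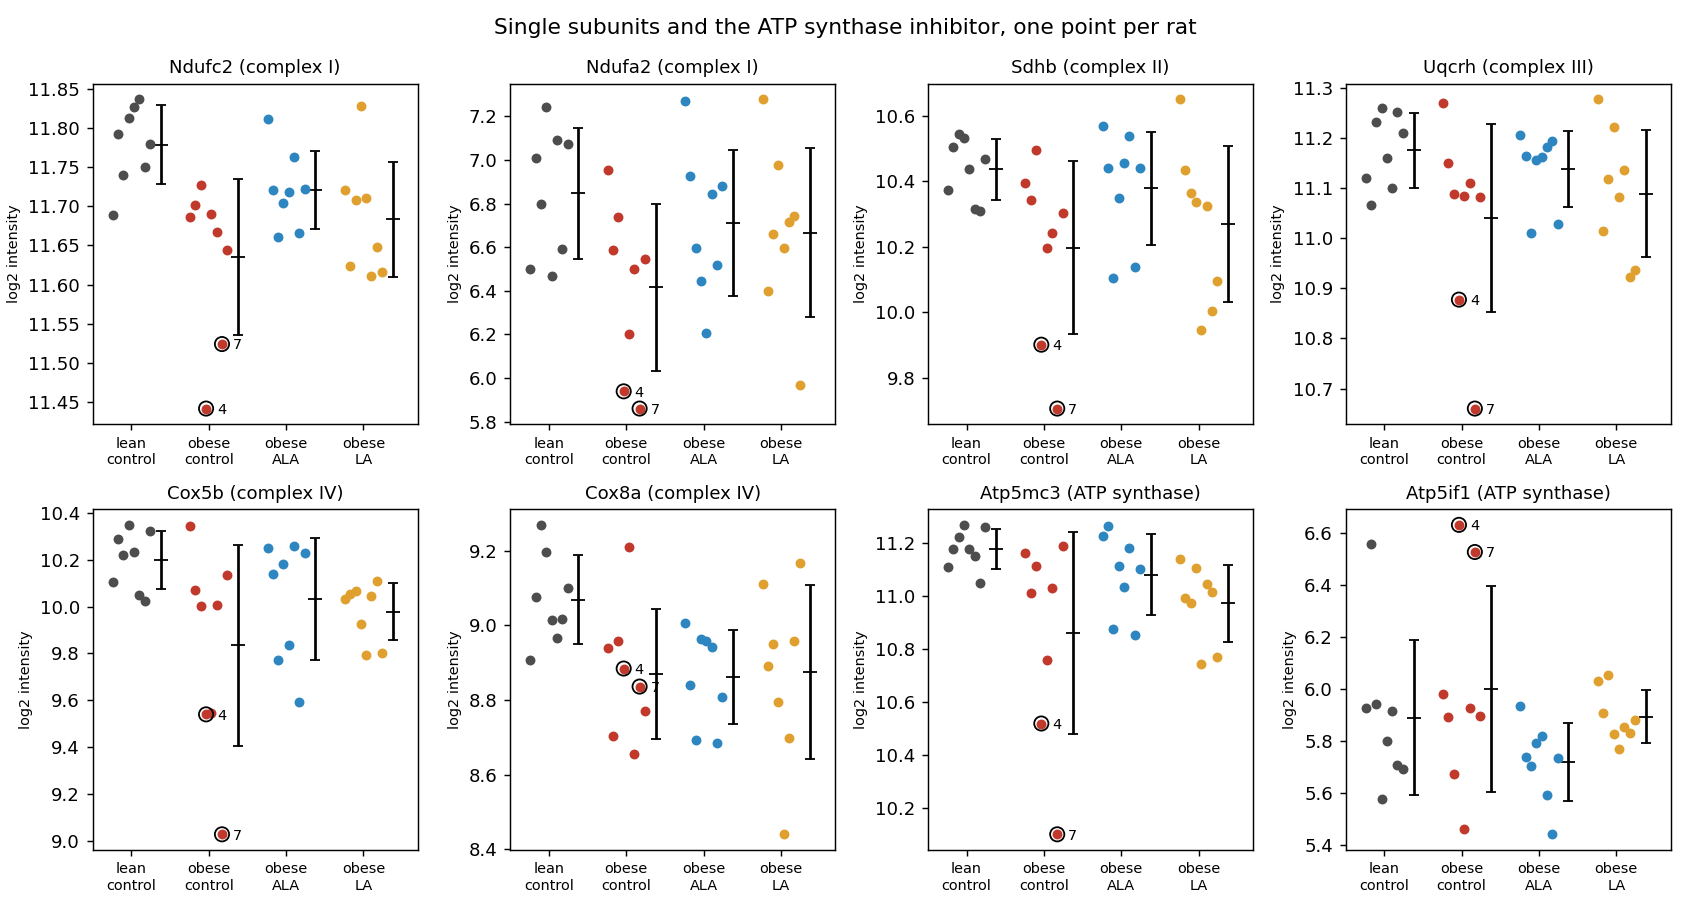
Log2 intensity (vertical axis) of 8 single genes is shown with 1 point per rat in the 4 groups, the group mean ± SD (n = 8) in black and obese controls 4 and 7 circled. The circled rats are the lowest of all in Ndufc2, Ndufa2, Sdhb, Uqcrh, Cox5b and Atp5mc3, inside their group in Cox8a and the highest obese rats in Atp5if1.

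The 1 member called in any comparison was Atp5hl1, which RefSeq lists as a pseudogene. Its values were 5.44, 5.50 and 5.63 in lean controls and 4.87, 5.23 and 5.39 in obese controls, so these groups did not overlap, as was the case, with obese lower, for 0.495% of all genes. ALA rats had 5.03, 5.28 and 5.59 and LA rats 4.90, 5.42 and 5.57, and both groups overlapped with the lean controls. Atp5hl1 fell by 0.32 on the log2 scale in obese controls, from 5.51 ± 0.064 (SD, n = 8) to 5.19 ± 0.19 (SE 0.087, adjusted p = 0.0496). The call was marginal: the adjusted p ranged from 0.0216 to 0.124 when 1 array was left out, and it was above 0.05 in 20 of the 32 such fits. Without rats 4 and 7 the difference was -0.24 (adjusted p = 0.207). Whether its feature also binds RNA of other copies of the gene was not tested. Over the 12 copies and pseudogenes tested, 8 were lower in obese controls and the median was -0.039.

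The comparison of each oil with the obese controls sets pair-fed obese rats on the oil against obese rats that ate without restriction. The calories were matched, but the oil and the way of feeding cannot be told apart in it. In ALA rats 66 of the 73 subunits and factors were higher than in obese controls, where 47.8% of all genes were, and the median log2 difference was 0.12. In LA rats 64 of the 73 were higher, where 49.2% of all genes were, with a median of 0.073. Neither comparison called a member by limma at an adjusted p below 0.05, and 0% of all genes were called in each. At an unadjusted p below 0.05 there were 13 of the 73 in the ALA comparison, against 8.41% of all genes, and 0 of the 73 in the LA comparison, against 6.25%. The counts of members called stayed 0 in both comparisons under the 15 other settings, array weights and a robust prior included, and in the 32 fits with 1 array left out. Both comparisons share the obese controls with the comparison of obese and lean, so a low value in obese control 4 or 7 enters all 3.

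By complex, the ALA medians were 0.13 in complex I, 0.14 in its assembly factors, 0.17 in complex II, 0.12 in complex III, 0.079 in complex IV and 0.16 in the ATP synthase. The LA medians were 0.082, 0.12, 0.092, 0.085, 0.031 and 0.089 in the same order. Without obese controls 4 and 7 the ALA medians were 0.0078, 0.042, 0.0097, 0.0074, -0.0060 and -0.0037, and 38 of the 73 genes were higher and 35 lower, where 48.9% of all genes were lower. The LA medians were then -0.031, -0.0074, -0.059, -0.042, -0.050 and -0.036, and 15 of the 73 were higher and 58 lower, where 50.1% of all genes were lower. The median over the 73 was 0.0074 for ALA and -0.038 for LA, so the direction of the LA difference turned. The largest ALA difference was that of Ndufaf1 at 0.40 (SE 0.17, adjusted p = 0.545), which was 0.22 without both rats. Ndufaf8, an assembly factor, had the smallest p, with a difference of 0.26 (SE 0.089, adjusted p = 0.494). The largest LA difference was that of Ndufa2 at 0.25 (SE 0.17, adjusted p = 0.852).

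Between the oils, which differ in their main fatty acid, 57 of the 73 genes were higher in ALA than in LA rats, where 49.6% of all genes were, with a median of 0.044. Limma called no gene of the 10917 (0%), and 0 of the 73 reached an unadjusted p below 0.05, against 6.94% of all genes. The 95% confidence interval of Cox5b was -0.20 to 0.31, that of Sdhb -0.092 to 0.31, that of Uqcrh -0.086 to 0.18, that of Atp5mc3 -0.11 to 0.33 and that of Ndufc2 -0.058 to 0.13. Against lean controls, 48 of the 73 were lower in ALA rats (median -0.014; 53.0% of all genes were lower) and 59 of the 73 in LA rats (median -0.068; 51.5% of all genes were lower). No member was called in either, where 0.889% and 1.62% of all genes were. At an unadjusted p below 0.05 there were 1 of the 73 (Cox8a) in ALA rats and 4 (Cox6a1, Cox8a, Atp5f1c and Ndufc2) in LA rats, against 9.32% and 13.5% of all genes. The Atp5f1c feature was near the dim end of the array.

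Genes that serve the same enzymes were read from lists of known factors. Among 28 tested assembly factors outside the name rule, 22 were lower in obese controls (median -0.092) and 2 were called, both lower, against 1.33% of all genes. Without rats 4 and 7, 20 were lower (median -0.052) and 1 was called, against 1.50% of all genes. Sdhaf2, which attaches the flavin to Sdha, had lowest, median and highest values of 9.12, 9.35 and 9.40 in lean controls and 8.59, 8.97 and 9.19 in obese controls. ALA rats had 8.95, 9.11 and 9.29 and LA rats 8.72, 9.00 and 9.13, and every obese rat of the 3 groups lay below the lean median. Sdhaf2 fell in obese controls by a log2 difference of -0.41 (SE 0.075, adjusted p = 0.00184), and remained called without rats 4 and 7 (-0.32, adjusted p = 0.0131) and with any 1 array left out (adjusted p from 0.000519 to 0.00551). It was called in LA rats against lean controls too (-0.35, SE 0.075, adjusted p = 0.00978). In ALA rats the difference from lean was -0.18 (SE 0.075, adjusted p = 0.374). Atpaf2, a chaperone of the alpha subunit of the ATP synthase, had 6.84, 7.12 and 7.24 in lean controls, 6.52, 6.79 and 6.94 in obese controls, 6.74, 7.00 and 7.27 in ALA rats and 6.73, 7.02 and 7.21 in LA rats. It fell by a log2 difference of -0.33 (SE 0.083, adjusted p = 0.0251), but was at -0.28 (adjusted p = 0.126) without rats 4 and 7, and its adjusted p passed 0.05 in 6 of the 32 fits with 1 array left out.

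In 3 neighbouring pathways, of 14, 13 and 7 tested genes, limma called none, where 1.76% of all genes were called. At an unadjusted p below 0.05 there were 2, 3 and 0 genes, where 14.8% of all genes reached it. These are the tricarboxylic acid cycle, the electron carriers and the export of ATP. All 14 tested genes of the tricarboxylic acid cycle were lower in obese controls (median -0.10), and 6 of 14 were without rats 4 and 7 (median 0.016). Idh2, the mitochondrial isocitrate dehydrogenase, was at -0.28 (SE 0.10, adjusted p = 0.163). Its medians were 11.30 in lean and 11.12 in obese controls, where rat 7 was lowest at 10.40. Of 13 electron carrier genes, for cytochrome c and ubiquinone synthesis, 9 were lower (median -0.087), and 5 were without both rats (median 0.014). Coq5, an enzyme of ubiquinone synthesis, was at -0.41 (SE 0.14, adjusted p = 0.134). Its medians were 6.50 in lean and 6.27 in obese controls, where rat 7 was lowest at 5.33. Of 7 genes of ATP export and phosphocreatine 6 were lower (median -0.028), and 1 was without both rats. Among 14 regulators of mitochondrial biogenesis 11 were lower (median -0.043) and 1 was called, lower, against 1.33% of all genes. Without rats 4 and 7, 10 were lower (median -0.027) and 0 were called by limma. Ppara, a fatty acid receptor, fell by a log2 difference of -0.63 (SE 0.17, adjusted p = 0.0408), from 7.61 ± 0.16 (SD, n = 8) to 6.98 ± 0.53. It was at -0.38 (adjusted p = 0.190) without rats 4 and 7, and was not called in 11 of the 32 fits with 1 array left out. Ppargc1a, a coactivator of the respiratory genes, was at -0.30 (SE 0.14, adjusted p = 0.319). Its medians were 8.81 in lean and 8.74 in obese controls, where rat 7 was lowest at 7.43.

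The rats with low subunits did not share 1 marker pattern. Obese controls 4 and 7 had macrophage means of 5.72 and 5.93 over 12 genes, where the other obese controls lay between 5.05 and 5.36. LA rat 8, with 45 genes below every lean control, had a regeneration mean of 7.04 and a slow-twitch mean of 8.89, the highest slow-twitch mean of any rat. LA rat 5 and ALA rat 3, with 39 and 36 such genes, had regeneration means of 6.31 and 6.09 and macrophage means of 5.10 and 4.79. LA rat 7 had the highest macrophage mean, 6.04, with 23 such genes (31.5%, all genes 20.9%). Slow-twitch means, over 10 genes, were 7.88 to 8.48 in lean controls and 6.48 to 7.31 in obese controls, without overlap, while the subunit means of 5 obese controls lay within the lean range. Fast-twitch means, over 5 genes, were 11.57 and 11.65 in obese controls 7 and 4, and 11.89 to 12.04 in lean controls. LA rat 8 was below the lean controls too, at 11.76, whereas LA rat 5 was the highest LA rat at 12.14. ALA rats lay between 11.98 and 12.04. Obese control 5, with 35 genes below every lean control, was the rat with the hepatocyte mean of 9.42. The part of these marker levels in the subunit values was not tested.

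**Figure D5:**
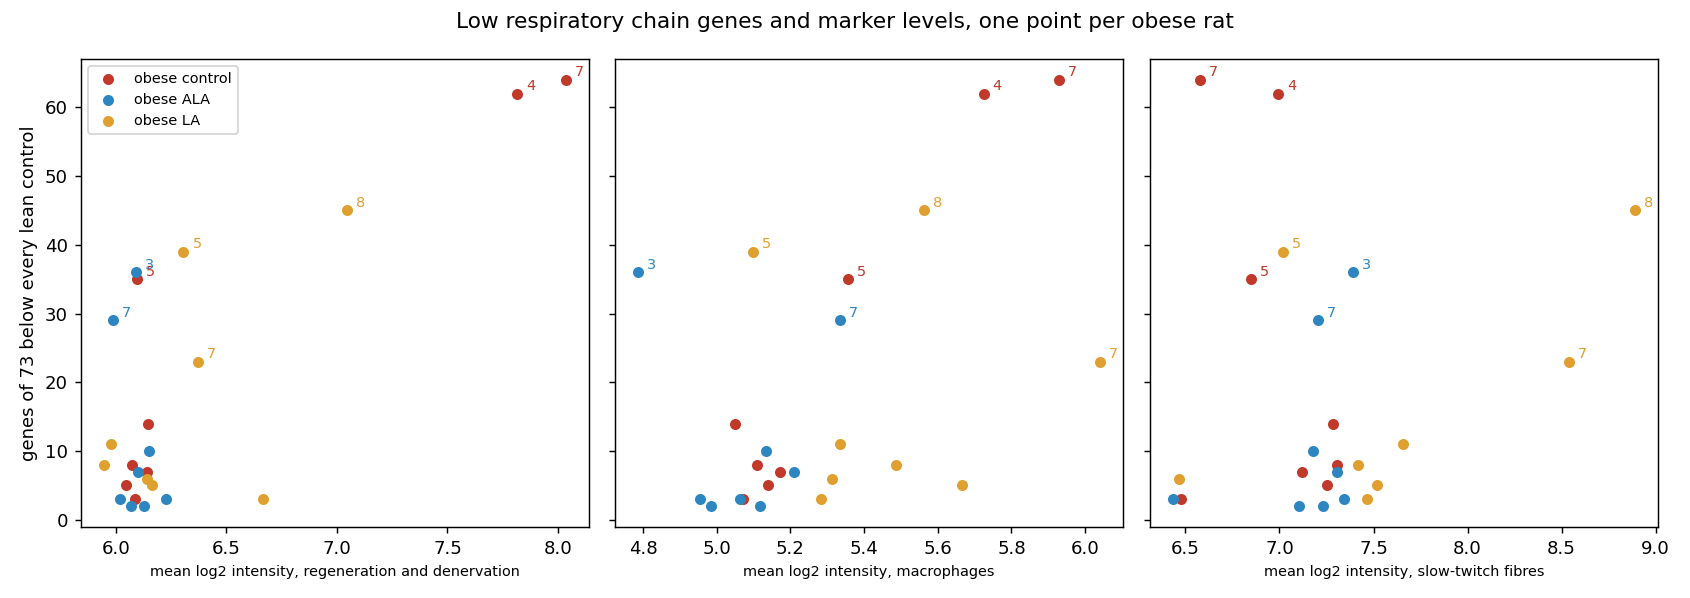
The number of the 73 subunits and factors below every lean control (vertical axis) is plotted against the mean log2 intensity of 3 marker lists (horizontal axes), with 1 point per obese rat coloured by diet group and the rat number beside points of 20 or more. Obese controls 4 and 7, at 62 and 64 genes, have the highest regeneration and denervation means of the obese rats, while ALA rat 3, at 36 genes, has the lowest macrophage mean.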

How the data were processed

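Total RNA (100 ng) was hybridised to 1 Affymetrix array per rat. The deposited log2 intensities were made by the authors with RMA, per the submitters' processing notes, whose version is not given in the sources used here. RMA corrects background, normalises quantiles and summarises probes, so a shift shared by most genes is removed, and differences of dim features are compressed. The array annotation gave 14824 of 36685 features exactly 1 symbol, 829 several and 21032 none. The 92 member symbols were all current in RefSeq.

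A mean for each group was fitted with limma 3.58.1 in R 4.3.3 to 10917 genes on all 32 arrays (28 residual degrees of freedom). Two-sided p values were adjusted by the Benjamini-Hochberg method over all genes tested within a comparison, and called below 0.05. The 8 arrays per group limit the precision, and the median standard error over the tested subunits was 0.093. Lists were described by counts and medians without a test. Members and lists were chosen with earlier results of these data known. Full values are given for members called, the 2 largest and the 1 smallest difference in each complex, and tissue isoforms. Ndufc2 and Atp5if1 were added. The procedure was tested on simulated data. Python 3.11.15 with pandas and matplotlib made tables and figures.

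Alternatives left out obese controls 4 and 7, the same and lean control 2, or each array in turn. Others used a second quantile normalisation, median centring, the mean of a gene's features, updated symbols, no filter or a 50% filter, every feature, only the groups compared, array weights, a robust prior with trend, an adjusted p below 0.1, and the rat number as a block. A fit without 6 arrays was added after the data were seen. Same-numbered rats had residual correlations from -0.23 to 0.30 (median 0.039), and the median for rats with other numbers was -0.014. The best match of 7 arrays had the same number. These values do not settle whether the numbers pair the rats.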

Additional observations from a re-analysis of the deposited data

Results flagged for a closer look

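Among 156 sets of 8 values, of the 32 members with full values and of the complex means in each group, 6 held a rat whose gap to its nearest neighbour, as a share of the range of the group, exceeded Dixon's critical value. Chance marks about 1 set in 20 this way. Atp5if1 in lean control rat 2 was the highest of its group at 6.55, with the next at 5.94. Sdha in the same rat was at 10.14, with the next lean control at 10.45. Cox4i1 in LA rat 5 was at 10.56, with the next LA rat at 10.72. Ndufaf1 in LA rat 8 was at 5.12, with the next at 5.97, and Ndufb10 in LA rat 1 was the highest of its group at 8.90, with the next at 8.54. Cox7b2, a feature below the filter, was at 2.41 in LA rat 6 with the next at 2.62.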

How the results depend on the processing

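The count of members called between obese and lean controls was 1, the pseudogene Atp5hl1. It was 0 without obese controls 4 and 7, without these and lean control 2, without 6 arrays (ALA rat 3, LA rats 7 and 8 and obese controls 4, 5 and 7, a setting chosen after seeing the data), with a second quantile normalisation, with no filter, with array weights, with the robust prior and with every feature tested, and 0 to 1 with 1 array left out. In the other 5 comparisons it was 0 in every setting. The median over all 92 members for obese minus lean controls was -0.13, from -0.16 to -0.064 with 1 array left out, and 0.00081 without the 6 arrays. The obese controls left out there, 4, 5 and 7, were those with the lowest subunit means, so this move towards 0 was built in. With 1 array left out the median ran from 0.050 to 0.14 for ALA and from 0.0089 to 0.094 for LA minus obese controls, both lowest without obese control 7. It ran from 0.020 to 0.060 for ALA minus LA, from -0.037 to 0.0084 for ALA minus lean and from -0.075 to -0.039 for LA minus lean. With the rat number as a replicate block the count was again 1, and all genes called rose from 192 to 245. Whether the numbers pair the rats was not settled. Over all genes, array weights raised the calls from 192 to 316 for obese minus lean, from 97 to 313 for ALA minus lean and from 177 to 369 for LA minus lean controls, and a threshold of 0.1 gave 354, 171 and 320. For ALA minus lean, 155 were called without obese controls 4 and 7, 262 without the 6 arrays and 255 with only the 2 groups compared, and 50 to 120 with 1 array left out. For LA minus lean, 295 were called without obese controls 4 and 7, 315 without the 6 arrays and 110 to 241 with 1 array left out. The cause of the lost calls was not tested. The SE of a subunit, 0.093 in the median, limits what can be called.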

Other observations

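A further 12 features named for 1 member of the chain and for another symbol, and so outside the name rule, cover genes that the 92 do not: Cox5a, Cox7a2, Ndufa10, Ndufs5, Uqcrb and Atp5mc2, besides a second feature of Cox7c. Between obese and lean controls their log2 differences ran from -0.25 (a feature of Uqcrb) to 0.025 (Atp5mc2), with adjusted p from 0.272 to 0.983 in a limma fit of every feature. Without obese controls 4 and 7 they ran from -0.13 to 0.12. The 2 features of Cox5a that agree to the last digit hold the same values and count once.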
